A study of Mus musculus with 2 samples.

Results

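The 10 genes described here are the twist-family transcription factors Twist1 and Twist2 and 8 genes of portal and perivascular mesenchyme: the PDGF receptors Pdgfra and Pdgfrb, the surface glycoprotein Thy1, the elastic-fibre genes Eln, Fbln1 and Fbln2, the ligand Gas6 and the Hedgehog effector Gli1. They were picked by name for their known roles, by a rule that sets no limit on a measured value, and are read by 11 probes among the probes of 19318 named genes. Total RNA of whole liver from 24-week-old mice was measured on 2 single-colour microarrays, 1 for Twist2-Cre/A20fl/fl mice, here called CKO, and 1 for the Twist2-Cre control. Both genotypes carry Twist2-Cre, and the floxed A20 allele separates them. A20 is the product of Tnfaip3 and dampens NF-kB signalling by editing ubiquitin chains. The comparison asks how the liver transcriptome differs when A20 is deleted where Twist2-Cre has been active. Twist2-Cre recombines in mesenchymal lineages, and whether all other liver cells kept the gene was not measured. The number of animals behind each RNA and the number of Cre alleles are not stated in these sources. In whole tissue, fewer cells of a type and less RNA per cell cannot be told apart.

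Portal fibroblasts lie around the bile ducts and vessels of the portal tract, apart from the stellate cells of the sinusoids, and both can turn into matrix-producing myofibroblasts. Twist1 and Twist2 are basic helix-loop-helix factors of mesenchymal cells that bind DNA as dimers with E proteins, and Id proteins block such dimers by sequestering the E proteins. PDGF receptors carry growth and migration signals into mesenchymal cells, fibulins and elastin build elastic fibres, Gas6 activates the receptor kinases Tyro3, Axl and Mertk, and Gli1 is a transcription factor that Hedgehog signalling induces.

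The Twist2 locus drives the Cre in both livers, so the sequence upstream of its start is shown beside that of its paralogue Twist1. Each run is the 250 bases before the start in RefSeq (GRCm38.p6, plus strand), at chr12:33957421-33957670 for Twist1 and chr1:91801211-91801460 for Twist2. Capitals mark TATAAA and the GC box GGGCGG on either strand, where the reverse strand reads CCGCCC.
Twist1: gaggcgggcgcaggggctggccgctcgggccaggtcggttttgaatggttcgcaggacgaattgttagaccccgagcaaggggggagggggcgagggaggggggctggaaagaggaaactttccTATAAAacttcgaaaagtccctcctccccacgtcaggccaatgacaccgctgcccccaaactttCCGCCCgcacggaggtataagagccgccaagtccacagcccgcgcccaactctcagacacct
Twist2: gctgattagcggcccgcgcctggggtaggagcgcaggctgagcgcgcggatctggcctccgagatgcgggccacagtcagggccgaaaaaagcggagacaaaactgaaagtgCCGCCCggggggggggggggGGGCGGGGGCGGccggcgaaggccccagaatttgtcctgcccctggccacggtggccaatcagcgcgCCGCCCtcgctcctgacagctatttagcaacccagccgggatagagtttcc
Both windows were rich in G and C, at 68.8% for Twist2 and 62.4% for Twist1. The Twist2 window held 4 GC boxes, which do not overlap, and 0 copies of TATAAA. The Twist1 window held 1 GC box and 1 TATAAA, which begins 126 bases before the start. Of 32851 upstream windows of the same length, 32.7% held a GC box and 12.4% held TATAAA on either strand. The E-box CANNTG, the kind of site that helix-loop-helix dimers bind, was found in neither Twist window, against 66.2% of all windows. The windows of Pdgfra, Fbln2 and Gas6 held 1 E-box each, and those of the 2 Fbln1 starts held 1 and 2. The GLI site GACCACCCA was in none of the 7 windows of the 6 genes whose windows were read, against 0.225% of all windows. These matches describe letters only.

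Each genotype has 1 array, so no difference could be tested and none has an error between mice. Of 23473 gene probes, 73.6% on the CKO array and 73.8% on the control array were above background, here the mean plus 2 SD of 384 blank spots. Values are given as deposited intensities, on a linear scale of arbitrary units with no value for the dimmest spots, and as log2 ratios of CKO over control after background correction with an added offset of 50, which shrinks the differences of dim genes. Over 24 positions per kind, the log2 ratio of the positive control spots averaged 0.16 for each kind and varied by 0.10 and 0.12 (SD). These control spots were not part of the normalization. Probes of the same gene differed by 0.13 in the log2 ratio with that offset (SD, 807 genes of all levels). These SDs are errors of spots and probes, not of mice. Tnfaip3 had a deposited intensity of 38 in the CKO liver and 41 in the control liver, a log2 ratio of -0.07. Where its probe lies relative to the floxed exons is not known here, so this value checks neither label.

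Of the 10 genes, 8 had signal in both livers, and the ratios of these 8 on the offset scale lay between -0.37 and 0.26. On that scale 0 of them were at least 2-fold higher or lower in the CKO liver. The share of all 14143 genes with signal on both arrays was 0.636% for a 2-fold higher and 0.0778% for a 2-fold lower value. These shares were 3.05% and 1.39% against the local background column. At 1.5-fold the count of the 8 was again 0 in each direction, beside 1.7% of all genes higher and 0.417% lower. These counts use the mean of both Thy1 probes, of which the dimmer has no signal; from its probe with signal alone, Thy1 lies just past 1.5-fold and the higher count is 1. By any amount 3 of the 8 were higher and 5 lower, beside 42.2% and 57.7% of all genes, with a median ratio of -0.08 against -0.02 for all genes. That split of all genes moved to 60.1% and 39.9% with plain subtraction of the blank mean and to 50.3% and 49.7% with cyclic loess. In the deposited intensities 1 of the 8, Thy1, was 2-fold higher or more and 0 were 2-fold lower, beside 3.51% and 0.728% of all genes. The counts of the 8 at 1.5-fold were also 1 higher and 0 lower there, beside 6.67% and 3.63%. By any amount the deposited intensities of 3 were higher and 5 lower, beside 37.2% and 53.6% of all genes. Read against these shares, counts of 0 or 1 among 8 genes show nothing particular to them.

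**Figure D1:**
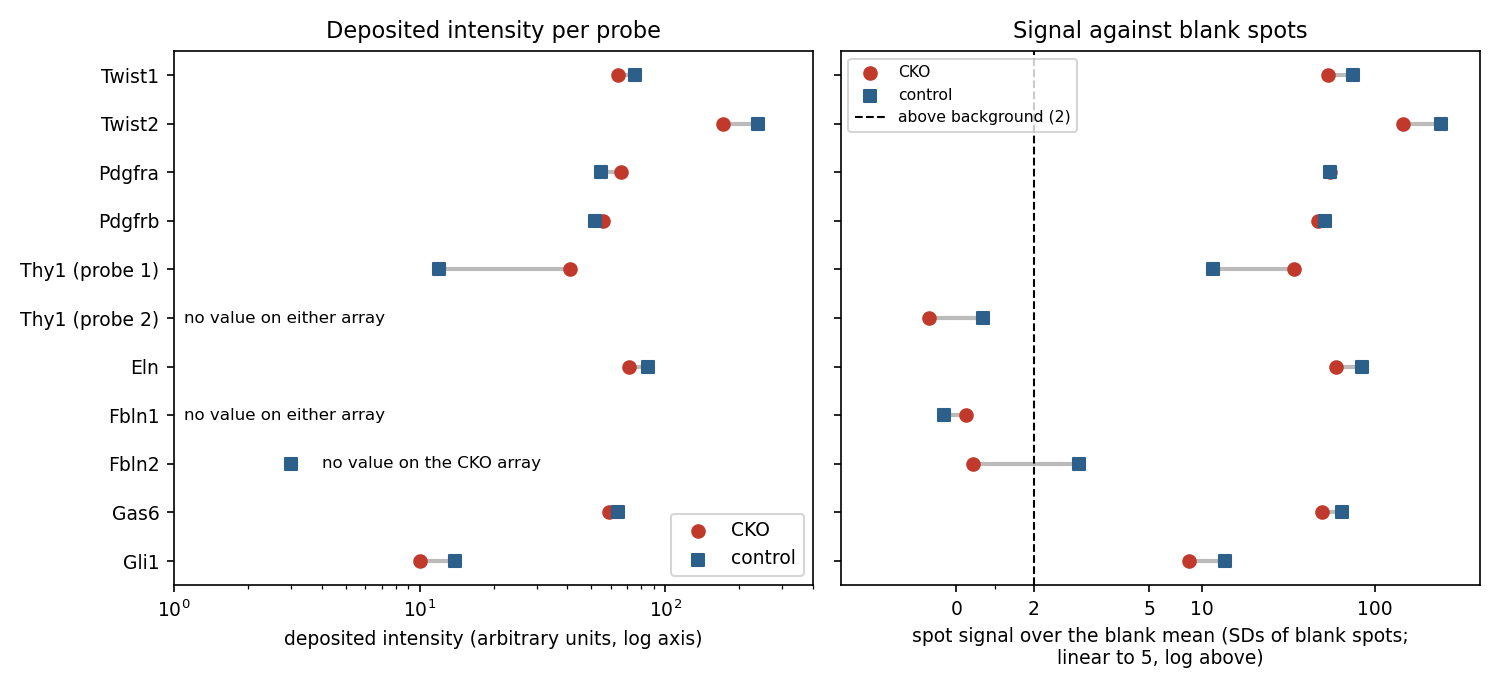
Left, deposited intensity of each probe (arbitrary units, log axis) in the CKO liver (circles) and the control liver (squares), 1 array each. Right, the same spots as the distance from the mean of the blank spots, in SDs of the blank spots (linear to 5, log above), with the background limit of 2 dashed. Thy1 probe 1 has the widest gap, 41 in the CKO and 12 in the control liver, while Thy1 probe 2 and Fbln1 lie within 1 SD of the blank spots on both arrays.

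Twist2, which marks dermal and other mesenchymal progenitors and whose locus carries the Cre, was lower in the CKO liver. Its deposited intensity was 172 in the CKO liver and 239 in the control liver, or 0.72-fold. The spots stood 144 and 238 blank SDs above the blank mean in the CKO and control arrays, so the signal was far from background on both. On the offset scale its log2 level was 8.03 in the CKO liver and 8.39 in the control liver, a ratio of -0.37. Only 1.7% of all genes had a lower ratio, and Twist2 lay just past the 5th percentile (-0.35) of genes at its own level. Its ratio was below 0 under each of 9 other ways of processing and 2 more added later, between -0.47 and -0.29. Twist2 has 1 probe, so the changes of filter and of probe choice among these only repeat its value of -0.37. Its place among all genes was least far out against the local background column, where 11.8% of genes were lower.

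Twist1, the paralogue known from craniofacial and limb mesenchyme, differed less. It had 64 in the CKO liver and 75 in the control liver, 0.85-fold in deposited intensity. Its ratio on the offset scale was -0.13, the size of the probe-to-probe SD, and 14.9% of genes were lower. Both Twist factors were therefore on the lower side, Twist1 inside and Twist2 outside the range from the 5th to the 95th percentile of genes of their level. Among the helix-loop-helix partners and other mesenchymal transcription factors, 12 of 15 genes were above background on both arrays, 5 higher and 7 lower, with a median of -0.02. The inhibitor Id3 had the largest ratio among them, -0.69, with deposited intensities of 800 in the CKO and 1366 in the control liver. Its relatives Id2 (-0.22, 2120 in CKO and 2628 in control) and Id1 (-0.20, 163 in CKO and 198 in control) were also lower. Against the local background column Id3 was higher (0.64) and Id2 was at 0.09, while Id1 stayed lower (-0.19). Snai2, a zinc-finger factor of mesenchymal transition, was at 0.13 with 38 in the CKO and 31 in the control liver, and at -0.12 against the local background column.

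**Figure D2:**
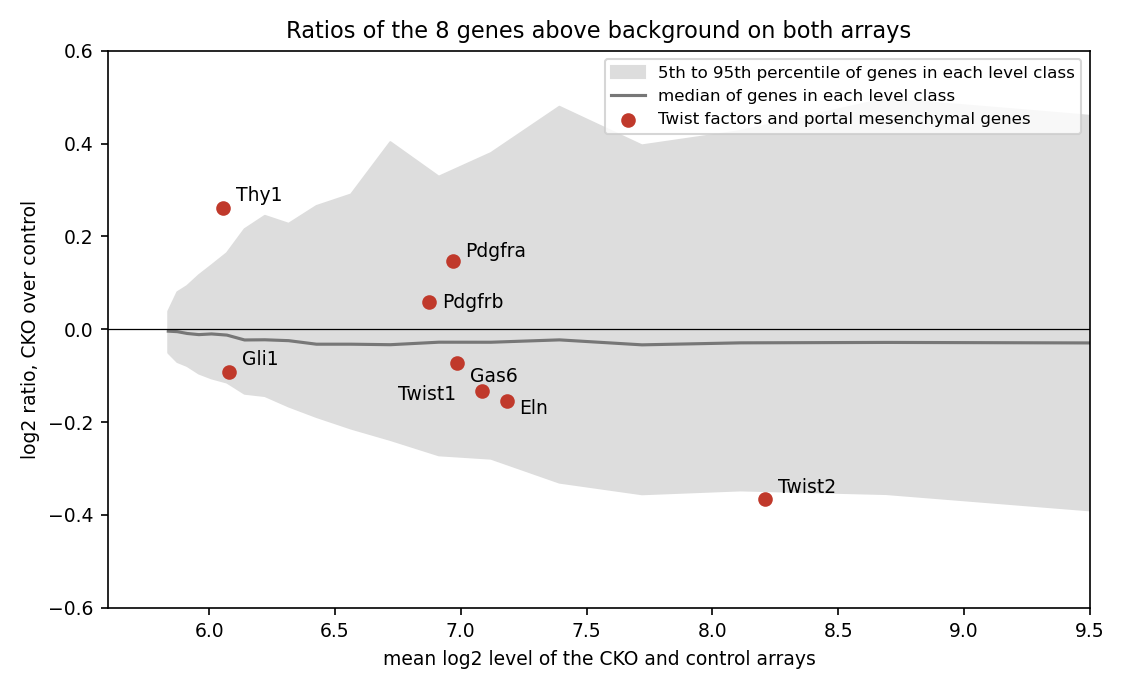
Log2 ratio of CKO over control against the mean log2 level of both arrays for the 8 genes above background on both, with the 5th to 95th percentile (grey) and the median (line) of all genes in 20 classes of level. Thy1, as the mean of a probe with and a probe without signal, lies above the grey band and Twist2 just below it; the other 6 lie inside.

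Both PDGF receptors were slightly higher in the CKO liver. Pdgfra, the receptor that marks fibroblasts of the portal tract as well as stellate cells, had 66 in the CKO liver and 55 in the control liver, 1.20-fold in deposited intensity. Pdgfrb, the receptor of stellate cells, pericytes and activated fibroblasts, had 56 in the CKO liver and 52 in the control liver, 1.08-fold. On the offset scale their ratios were 0.15 and 0.06, and 11.2% and 22.5% of all genes were higher. These ratios are close to or below the probe-to-probe SD of 0.13. Against the local background column they were 0.52 and 0.50. That column read 80.6 in the CKO and 118 in the control array around the Pdgfra spot, and 82.3 in the CKO and 120 in the control array around the Pdgfrb spot. Of their ligands, Pdgfc (44 in CKO and 40 in control), Pdgfb (21 in CKO and 19 in control) and Pdgfa (10 on both) had ratios of 0.08, 0.04 and 0.00, and Pdgfd was not above background on either array. Receptors and ligands alike thus differed by less than 1.5-fold on both scales.

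Thy1, a glycoprotein of portal fibroblasts and also of mouse T cells, had the widest difference of the 8 in deposited intensity, and its probes disagreed. On the offset scale Twist2 was further from 0 than the mean of both Thy1 probes, but nearer to 0 than the Thy1 probe with signal alone. The probe with signal had a deposited intensity of 41 in the CKO liver and 12 in the control liver, 3.42-fold. Its spot stood 34.0 blank SDs above the blank mean in the CKO array and 11.7 in the control array. The other probe, listed for the same transcript, had no deposited value on either array and stood -0.72 SDs from the blank mean in the CKO array and 0.68 in the control array. The mean of both probes gave a log2 ratio of 0.26, which is pulled towards 0 by a probe with no measurable ratio of its own, and the probe with signal alone gave 0.59. In the deposited intensities 1.02% of all genes had a higher ratio. With plain subtraction of the blank mean the ratio was 1.93, or 3.81-fold, in a setting where 4.3% of all genes were at least 2-fold higher. Against the local background column it was 0.04. That column read 95.4 in the CKO and 70.7 in the control array around the spot with signal. The ratio of Thy1 was thus above 0 under each setting run, and its size depended on the handling of background and on the probes that entered. Plain subtraction and the deposited intensities use the probe with signal alone, because the dim probe has no value in them. The offset scale and the local background column use the mean of both probes.

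T cell markers were higher beside Thy1 on the offset scale. Of 9 on the array 7 were above background on both arrays, and 6 of these were higher and 1 lower, with a median ratio of 0.33. That median was 1.15 with plain subtraction and 0.05 against the local background column, where 5 were higher and 2 lower. The deposited intensities of these 7 summed to 172 in the CKO liver and 54 in the control liver. The CD8 chains Cd8b1 (34 in CKO and 3 in control) and Cd8a (56 in CKO and 9 in control at its probe with signal), the CD3 chain Cd3d (39 in CKO and 19 in control) and the adhesion receptor Cd2 (17 in CKO and 4 in control) had the largest ratios. The control values of Cd8b1 and Cd2 lie close to the lowest deposited intensity, 2 on each array, so the size of their ratios is uncertain. Cd3e had no deposited value on either array and Cd3g had a value, 9, in the CKO liver alone; these 2 were picked for that reason. The other markers of portal fibroblasts had 5 of 11 genes higher and 6 lower, with a median of -0.03. Their summed intensities were 1526 in the CKO liver and 1968 in the control liver, and without the proteoglycan gene Dcn the sums were 608 in the CKO liver and 581 in the control liver. The part of T cells in the Thy1 value was not tested.

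Genes of the elastic fibre were near equal or near background. Eln, which encodes elastin, had 71 in the CKO liver and 85 in the control liver, 0.84-fold in deposited intensity and a ratio of -0.16. Against the local background column, which read 81.5 in the CKO and 131 in the control array around its spot, the ratio was 0.18, the opposite sign. Fbln1, which encodes the matrix glycoprotein fibulin-1, was not above background on either array, at 0.26 blank SDs over the blank mean in the CKO array and -0.31 in the control array, so it has no ratio. Fbln2, a fibulin used as a marker of portal fibroblasts, was above background in the control array alone, at 0.43 blank SDs over the blank mean in the CKO array and 3.18 in the control array. It had a deposited value of 3 in the control liver and none in the CKO liver, and the bound on its difference was at least 1.02-fold higher in control, which is no measurable size. The spots thus allow no statement on Fbln1 or Fbln2 beyond low signal in both livers. Of 14 other elastic-fibre genes on the array 12 were above background on both, with 7 higher and 5 lower, a median of 0.01. The crosslinking enzyme Loxl1 had the largest ratio, 0.30, with 31 in the CKO and 17 in the control liver, and was past 1.5-fold in deposited intensity and not on the offset scale. Ltbp4, which helps assemble elastic fibres, was at -0.15 (27 in CKO and 34 in control) and at 0.15 against the local background column. Among other fibulins and their ligands, 7 of 7 genes were above background, with 3 higher, 4 lower and a median of -0.005. Fibronectin, Fn1, had 4077 in the CKO and 4086 in the control liver, a ratio of 0.17 on the offset scale, the largest of that list, and of 2.83 against the local background column.

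Gas6, a vitamin K-dependent ligand, was near equal, while its receptors' transcripts and the related ligand Pros1 were on the higher side. Gas6 had 59 in the CKO liver and 64 in the control liver, 0.92-fold in deposited intensity, and a ratio of -0.07. Mertk, the receptor by which macrophages clear dying cells, had 106 in the CKO and 71 in the control liver, with a ratio of 0.38. Axl had 13 in the CKO and 7 in the control liver, with a ratio of 0.16, and Tyro3 was not above background on either array. Pros1, which encodes protein S and is made by hepatocytes, had 574 in the CKO and 371 in the control liver, with a ratio of 0.64. Against the local background column Mertk (-0.13) and Pros1 (-0.82) had the opposite sign and Axl was at 0.00. Of 11 macrophage markers on the array 10 were above background in both livers and all 10 of these were higher, with a median of 1.39 and summed intensities of 9012 in the CKO and 2674 in the control liver. Of these, 8 were higher and 2 lower against the local background column, with a median of 0.79. Among them were Marco (1707 in CKO and 74 in control) and Lyz2 (2437 in CKO and 695 in control), and Adgre1 had a deposited value, 5, in the CKO liver alone. The part of macrophages in the Mertk and Axl values was not tested.

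Gli1 was dim. It had 10 in the CKO liver and 14 in the control liver, 0.71-fold in deposited intensity, and stood 8.45 blank SDs above the blank mean in the CKO array and 13.6 in the control array. Its ratio was -0.09 on the offset scale, -0.18 with an offset of 16, -0.27 with plain subtraction and -0.49 in the deposited intensities. The sign was the same in all of these, and 23.1% of genes had a lower ratio on the offset scale. Of 12 other genes of the Hedgehog pathway on the array 5 were above background on both arrays, 1 higher and 4 lower, with a median of -0.06. Shh, a ligand, had 5 in the CKO and 9 in the control liver, and Smo, the signal transducer, had 5 in the CKO and 7 in the control liver. Gas1, a coreceptor, had 404 in the CKO and 382 in the control liver. Ptch1, the receptor that Hedgehog signalling also induces, and the Gli1 relatives Gli2 and Gli3 were not above background on either array.

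**Figure D3:**
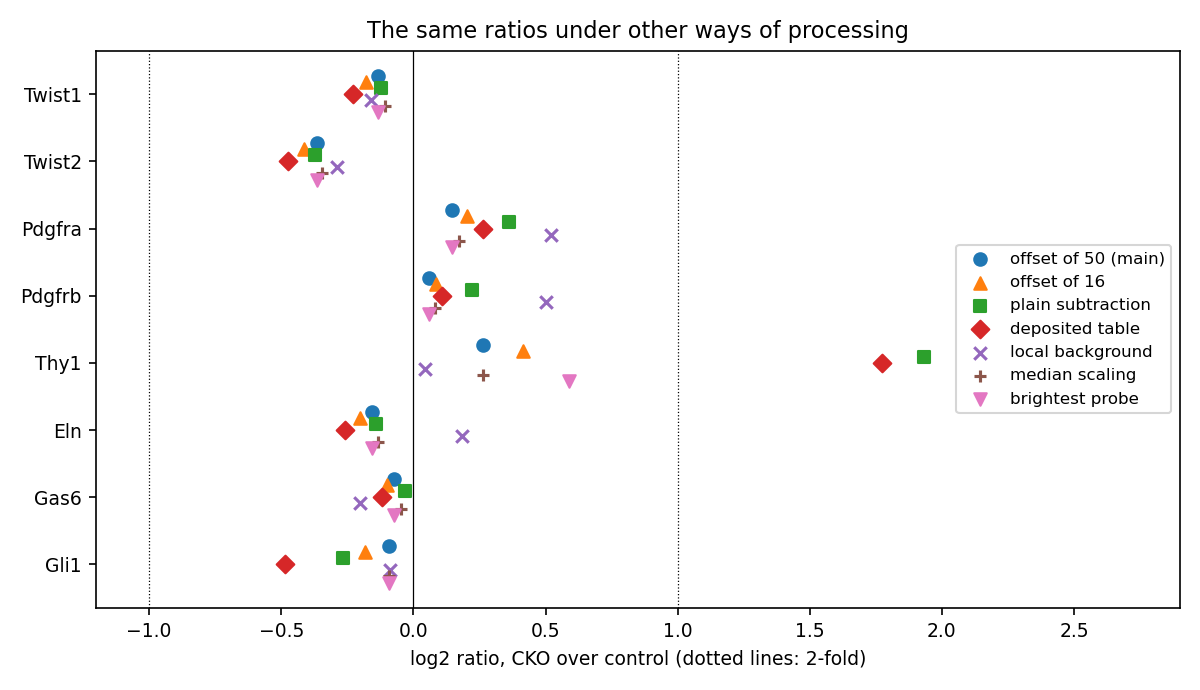
Log2 ratio of CKO over control (x axis, dotted lines at 2-fold) for the 8 genes above background on both arrays, with 1 marker for each of 7 ways of processing the same spots. Thy1 ranges from 0.04 to 1.93, Eln changes sign against the local background column, and Twist2 stays between -0.47 and -0.29. With plain subtraction, the deposited intensities and the brightest probe, Thy1 is read from its probe with signal alone, and otherwise from the mean of both probes.

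Markers of neighbouring cell types place these values. The liver label was checked against hepatocyte genes, of which albumin, Alb, gave strong signal, at 36770 in the CKO and 37445 in the control liver. Their list median was 0.00. Not all were bright, with Cps1 at 133 in the CKO and 129 in the control liver. The largest ratio of the list was that of Tat, -0.42, with 3280 in the CKO and 4834 in the control liver. Stellate cell markers had 4 of 10 genes higher and 6 lower, with a median of -0.04. The proteoglycan Dcn, shared by portal fibroblasts and stellate cells, was at -0.52, with 918 in the CKO and 1387 in the control liver. Of 8 smooth muscle and pericyte markers 7 were above background on both arrays, 4 higher and 3 lower, with a median of 0.01. The contractile genes Acta2 (59 in CKO and 33 in control) and Tagln (37 in CKO and 19 in control) had the largest ratios. Notch3 was lower (9 in CKO and 12 in control), and Cnn1 had a deposited value, 4, in the control liver alone. All 6 mesothelial markers, all 5 cholangiocyte markers and 6 of 8 endothelial markers were lower on the offset scale, beside 57.7% of all genes. Their medians were -0.14, -0.18 and -0.26. With the local background column 4 of the 6, all 5 and 4 of the 8 were lower, beside 59.2% of all genes. The medians there were -0.03, -0.16 and -0.04. The mesothelial gene Upk1b, counted as lower at -0.02, had 24 in both livers and is named for this reason. Krt19, a keratin of both bile duct cells and mesothelium, is counted and summed in both lists. It had 13 in the CKO and 27 in the control liver and the lowest ratio of each list, -0.33. The summed intensities of the 8 endothelial genes were 859 in the CKO and 1292 in the control liver, those of the cholangiocyte list were 98 in the CKO and 140 in the control liver, and those of the mesothelial list were 181 in the CKO and 246 in the control liver. Twist2 was also lower, and the part of these cell types in its value was not tested. Nor was that of the number of Cre alleles at its locus, which is not stated for either liver.

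**Figure D4:**
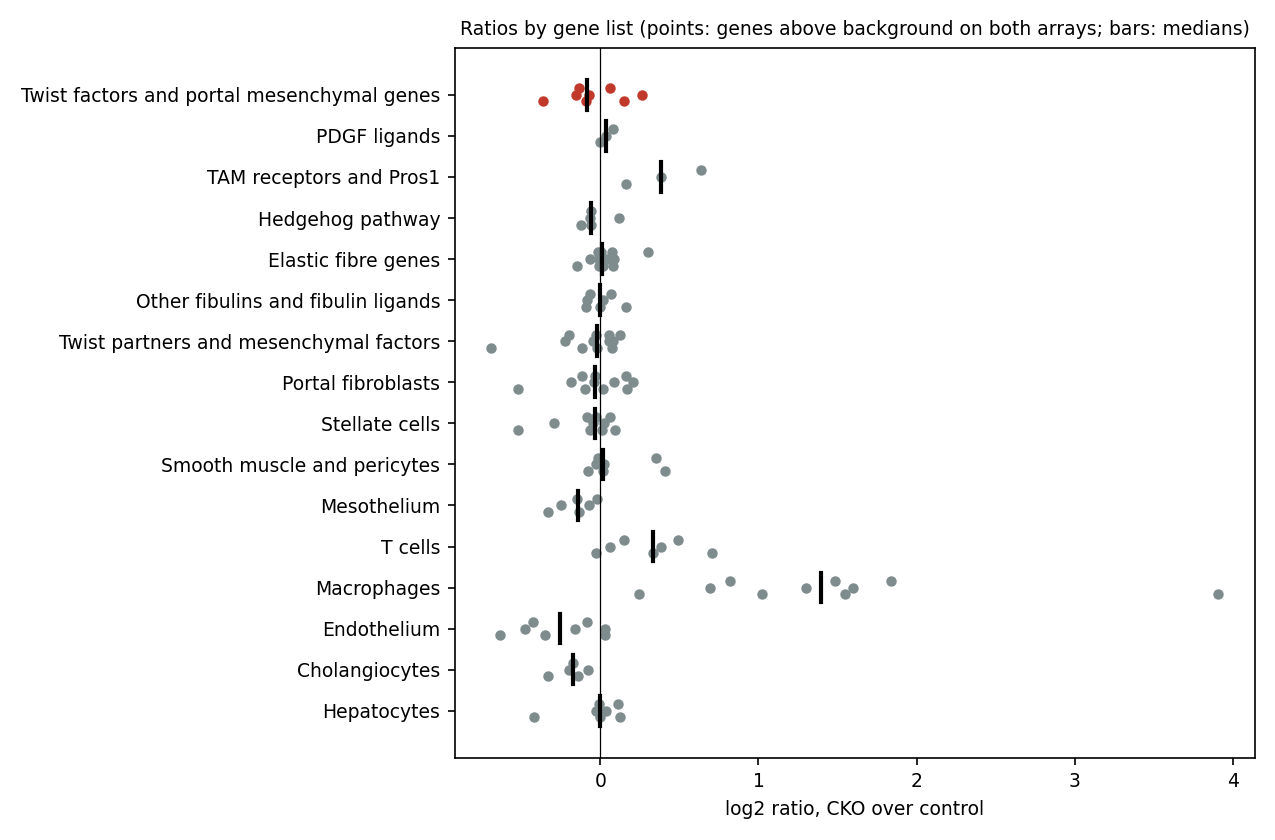
Log2 ratio of CKO over control for each gene above background on both arrays (points), by list, with list medians as bars. The Twist factors and portal mesenchymal genes have a median of -0.08 and span -0.37 to 0.26, the T cell and macrophage medians are 0.33 and 1.39, and the endothelial median is -0.26.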

How the data were processed

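Per the file headers, each scanner file holds 2 median intensities for every position in 1 colour, that of the spot and that of the area around it, joined from scans at 3 gains. Per the labels' protocols, RNA was amplified as amino allyl aRNA and coupled to Cy5. The authors' deposited value table holds intensity on a linear scale. Its making is not described in these sources; tested on the values, it follows the spot less the blank mean, times 0.825 on the CKO array and 0.859 on the control array. Of 27456 spots per array, the 4 that the control array's file flags were dropped; the CKO array's file flags 0.

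Spots were corrected with normexp (limma 3.58.1, R 4.3.3) against the mean of the blank spots with an offset of 50, then quantile-normalized between arrays and expressed as log2 values. The local background column was not used because it followed the spot's own log2 signal (r = 0.972 CKO, 0.988 control). A gene's value was the mean of its probes, named from the platform annotation. Over background meant more than 2 SD above the blank mean. Differences were sized at 2-fold and 1.5-fold, and genes were ranked over all 14143 genes above background on both arrays. Other ways of processing were plain subtraction, the local background column, an offset of 16, median scaling, cyclic loess, the deposited table, no filter, a limit of 5 blank SD and the brightest probe. The procedure was run on simulated arrays in which only genes well above the blank spots were changed. On the offset scale that run checked the order of the changes and not their size, and it does not cover dim genes. The number of arrays limits the precision, and no p-value was computed. Members, gene lists and settings were chosen with earlier results of these data known. Named genes were the 10 members, Tnfaip3, up to 4 genes with the largest absolute ratio in each of 15 lists, and direct ligands, receptors and relatives of members; Adgre1, Cd3e, Cd3g and Upk1b were added after their values were seen. Likeness to other genes was not computed, since 2 samples give no pattern. Upstream sequences are from a RefSeq table (GRCm38.p6), and windows of 6 of the 10 genes were read. Windows on chromosome 18, where Pdgfrb lies, were left out. Thy1, Eln and Gli1 had no window there.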

Additional observations from a re-analysis of the deposited data

How the results depend on the processing

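Each result was recomputed under 9 other ways of processing and 2 more chosen after seeing the data (probes above background only, and block medians removed); Fbln1 and Fbln2, without a ratio, were left out of the ratios of single genes. For the 8 genes above background and Tnfaip3, 85 recomputed ratios stayed within the probe-to-probe SD of the reported value. A further 14 moved by more, those of Thy1 the most. That SD was taken on the offset scale over genes of all levels, so it is not the spread of the scales without an offset. Among the 85 are values that could not move. The changes of filter only choose which genes enter, so they repeat each gene's ratio. The choices of probe (the brightest, or those above background only) repeat it for each gene with 1 probe, here all but Thy1. Such repeats say nothing about stability. The count of the 8 genes at least 2-fold higher was 0 and became 1, Thy1, with plain subtraction and in the deposited table. At 1.5-fold it was also 1 in these settings, with the brightest probe and with probes above background only. Of the medians of the 15 other lists, 140 recomputed values stayed within that SD and 25 moved further. The choices of probe likewise could not move the median of a list whose genes have 1 probe each. The median of the 8 genes moved by less than that SD under each alternative. Over all genes, 90 were 2-fold higher and 11 lower; these became 608 and 44 with plain subtraction, 432 and 197 against the local background column, 181 and 19 with an offset of 16, and 497 and 103 in the deposited table. The cause was not tested, beyond the offset's own construction. The median ratio over all genes was 0.08 with plain subtraction and -0.05 in the deposited table. No paired analysis was possible because each genotype has 1 array. Signals within a few blank SDs of the blank mean (Fbln1, Fbln2 and Thy1's dim probe) allow no ratio.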
